A study of Mus musculus with 18 samples.

Results

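Gadd45a, Gadd45b and Gadd45g, the 3 genes of the growth arrest and DNA damage 45 family, were followed on 18 Affymetrix mouse arrays of CD8 T cells. All probe sets annotated to exactly 1 of these symbols were taken. A probe set is a group of short probes that together report 1 transcript. There were 5 of them: 1449519_at for Gadd45a, 1449773_s_at, 1450971_at and 1420197_at for Gadd45b, here called the bright, middle and dim Gadd45b probe sets after their mean signal, and 1453851_a_at for Gadd45g. The 3 genes are 3 of 18193 genes on the array. All 5 probe sets passed the filter on low values on 18 of 18 arrays.

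The cells came from C57Bl/6 F5 mice, whose CD8 T cells carry 1 transgenic T cell receptor for the peptide NP68, so every group shares that receptor. Naive cells and TIM memory cells, taken 45 days after mice had been repeatedly immunised with the peptide, were sorted from the spleen by flow cytometry. For naive cells there were 2 arrays ex vivo, that is straight from the sorter, and 2 arrays each of cells cultured for 20 hours with 10 ng/mL IL-7 or with this IL-7 and 20 ng/mL IL-4. For memory cells there were 4 arrays ex vivo and 2 arrays for each of 4 cultures of the same length: medium without cytokine, IL-7, IL-4, and both cytokines, at these concentrations. No naive culture without IL-7 was part of the design, and the labels do not say how many animals stood behind an array. Values are log2 of the RMA signal, so a difference of 1 is a doubling of the linear signal. In bulk RNA, fewer expressing cells and less RNA per cell cannot be told apart.

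GADD45 proteins are small acidic nuclear proteins without a known enzymatic activity that act by binding partners. All of them bind and activate the kinase MEKK4 (Map3k4), which feeds the p38 and JNK kinases, and they also bind PCNA, the inhibitor p21 (Cdkn1a) and the kinase CDK1, which links them to cell cycle arrest and repair. In T cells, GADD45B and GADD45G are known for sustaining p38 activity and interferon gamma production after IL-12 and IL-18, while GADD45A is known as a p53 target and as a brake on an alternative route of p38 activation.

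The array labelled memory in medium, replicate 2, stood apart from its label. Its nearest array was ex vivo memory array 2 (r = 0.991 over all probe sets tested), against r = 0.951 to medium array 1. GADD45 changes in contrasts that hold the medium group are therefore given with and without it, for Gadd45b at least on the bright probe set. Array medians ran from 4.62 to 4.76. Of 8 CD8 T cell markers, 7 had a probe set of their own and these lay between 9.36 and 13.3 on every array. Of 25 markers of other cells, 14 were above the filter on all 18 arrays, 7 on some and 4 (Itgam, Foxp3, Hba-a1 and Ppbp) on 0. Most of them were dim, Cd79a between 3.67 and 5.53 and Lyz2 between 4.08 and 4.79 for example. However, Cd79b of B cells reached 8.79, Itga2b of platelets 8.43 and Zbtb7b of CD4 T cells 7.28. Cd68 and Csf1r of myeloid cells reached 7.04 and 6.62, and Tyrobp of NK cells 6.61. Alas2, a heme synthesis gene of red cell precursors, lay between 4.15 and 6.15 on the 6 naive arrays and between 6.84 and 11.50 on the 12 memory arrays. It was higher on array 1 than on array 2 in memory cells with IL-7 (10.09 and 7.05), IL-4 (9.89 and 6.84) and both cytokines (10.03 and 7.15), 3 cultures in which Gadd45a, Gadd45g and the bright Gadd45b probe set were also higher on array 1.

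The 250 bases before the start of each gene are printed here because the 3 genes of this family followed 3 different patterns over the same arrays. They were taken from the RefSeq table of assembly GRCm38.p6 and run from 5′ to 3′ on the strand of the gene: chr6:67037408-67037657, minus strand, before Gadd45a, whose gene spans chr6:67035096-67037407; chr10:80929841-80930090, plus strand, before Gadd45b (gene at chr10:80930091-80932204); and chr13:51846425-51846674, plus strand, before Gadd45g (gene at chr13:51846675-51848475). Capitals mark matches to CCAAT, the E-box CACGTG, the TATA box TATAAA and the octamer ATTTGCAT or its reverse complement.
Gadd45a: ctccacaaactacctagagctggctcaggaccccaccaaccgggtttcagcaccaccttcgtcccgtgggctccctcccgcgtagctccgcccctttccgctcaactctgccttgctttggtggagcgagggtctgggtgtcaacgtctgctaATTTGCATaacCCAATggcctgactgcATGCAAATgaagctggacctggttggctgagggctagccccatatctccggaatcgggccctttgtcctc
Gadd45b: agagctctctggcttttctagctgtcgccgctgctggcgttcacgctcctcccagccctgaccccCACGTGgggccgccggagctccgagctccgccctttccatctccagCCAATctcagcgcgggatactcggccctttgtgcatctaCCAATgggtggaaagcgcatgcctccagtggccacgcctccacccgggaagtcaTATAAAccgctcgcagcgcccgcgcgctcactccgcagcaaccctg
Gadd45g: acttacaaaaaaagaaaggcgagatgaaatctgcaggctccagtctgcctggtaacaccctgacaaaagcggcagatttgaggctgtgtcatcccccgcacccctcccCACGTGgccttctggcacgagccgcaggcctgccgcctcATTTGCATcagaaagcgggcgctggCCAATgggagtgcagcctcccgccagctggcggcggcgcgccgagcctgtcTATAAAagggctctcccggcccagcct

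The window before Gadd45a held 1 CCAAT and 2 octamers on opposite strands, and neither the E-box nor the TATA box. The window before Gadd45b held 2 CCAAT, 1 E-box and 1 TATA box, and that before Gadd45g held 1 each of CCAAT, E-box, TATA box and octamer. Searched on both strands, CCAAT was present in 33.9% of 32841 promoter windows of the same length, the E-box in 6.02%, the TATA box in 12.4% and the octamer in 1.6%. The motifs were chosen after the sequences had been seen, and a match describes letters, not a bound site. The inverted repeat of TTC and GAA that STAT factors bind was in none of the 3 windows, either with 3 bases between (present in 7.02% of windows) or with 4 (5.85%), and neither was the cAMP response element core TGACG (17.8%). The 3 windows were 59.2%, 65.2% and 62.0% G and C, in the order a, b, g, against a median of 52.4% over all windows.

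Gadd45a was high in cells taken ex vivo and lower after culture, whichever cytokine had been added. Naive arrays ex vivo read 8.98 and 8.27, and memory arrays ex vivo read 8.83, 8.22, 8.86 and 9.06. Naive cells read 6.01 and 6.07 with IL-7 and 6.11 and 6.45 with both cytokines. Memory arrays with IL-7 read 6.32 and 5.61, those with IL-4 6.66 and 5.18, and those with both 6.08 and 5.35. Memory cells in medium read 6.52 on array 1 and 8.57 on array 2. Array 2 in medium lay within the ex vivo range, and every other cultured array lay below every ex vivo array. In the order of group means, memory ex vivo (8.74 ± 0.36, SD, n = 4) and naive ex vivo (8.63 ± 0.50, SD, n = 2) overlapped, as did naive ex vivo and medium. At the low end, naive cells with IL-7 and the memory cultures with IL-7, IL-4 and both cytokines (5.72 ± 0.52, SD, n = 2, the lowest) each overlapped the next.

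Gadd45b was also highest ex vivo, but in culture its level depended on the array as much as on the group. By its bright probe set, naive cells ex vivo read 10.28 and 10.55 and memory cells ex vivo 11.48, 10.62, 11.00 and 11.28. Naive cells with IL-7 read 6.32 on array 1 and 10.26 on array 2, and naive cells with both cytokines 6.83 on array 1 and 10.10 on array 2. Both naive cultures were thus split, with the arrays numbered 2 near the ex vivo level and the arrays numbered 1 near the lowest of all. Memory arrays read 6.90 and 6.59 under IL-7, 7.67 and 7.25 under IL-4 and 8.44 and 8.15 under both cytokines, while medium read 7.17 on array 1 and 10.72 on array 2. On this probe set these 3 cytokine groups of memory cells did not overlap one another. On the middle probe set IL-4 (7.26 to 8.02) and both cytokines (7.30 to 8.23) overlapped. They also overlapped on the dim one (5.19 to 5.41 and 5.35 to 5.86).

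The other Gadd45b probe sets showed the same split. The middle probe set read 6.72 and 10.13 in naive cells with IL-7 and 7.22 and 9.97 with both cytokines, and the dim one read 4.86 and 6.62, then 4.88 and 6.33. Across all 18 arrays, the bright probe set ran from 6.32 to 11.48, the middle one from 6.68 to 10.94 and the dim one from 4.61 to 7.04. The letter s in the name of the bright one marks, in the array maker's scheme, probes that match more than 1 transcript. Group means of the bright probe set ran from 11.10 ± 0.37 (SD, n = 4) in memory cells ex vivo to 6.74 ± 0.21 (SD, n = 2) in memory cells with IL-7. From naive cells ex vivo down to memory cells with IL-4, each group in that order overlapped the next, and the SD reached 2.79 in naive cells with IL-7.

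Gadd45g alone was highest in cultures with IL-4. Memory cells with both cytokines read 12.15 and 11.63 and with IL-4 alone 12.13 and 11.33, above all 14 other arrays. Memory cells with IL-7 alone read 7.31 and 6.86, the latter the lowest of the 18, and medium read 7.02 on array 1 and 9.87 on array 2. Naive cells read 9.13 and 9.25 ex vivo, 9.25 and 10.10 with IL-7, and 10.32 and 10.72 with both cytokines, so no culture of naive cells fell to the level of memory cells with IL-7. Memory cells ex vivo read 10.41, 9.73, 9.65 and 10.19. By group means, memory cells with both cytokines (11.89 ± 0.36, SD, n = 2) and with IL-4 (11.73 ± 0.57) overlapped. Naive cells with both cytokines (10.52 ± 0.28), memory cells ex vivo (9.99 ± 0.37, n = 4) and naive cells with IL-7 (9.68 ± 0.60) overlapped in turn, and memory cells with IL-7 came last (7.09 ± 0.32).

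**Figure D1:**
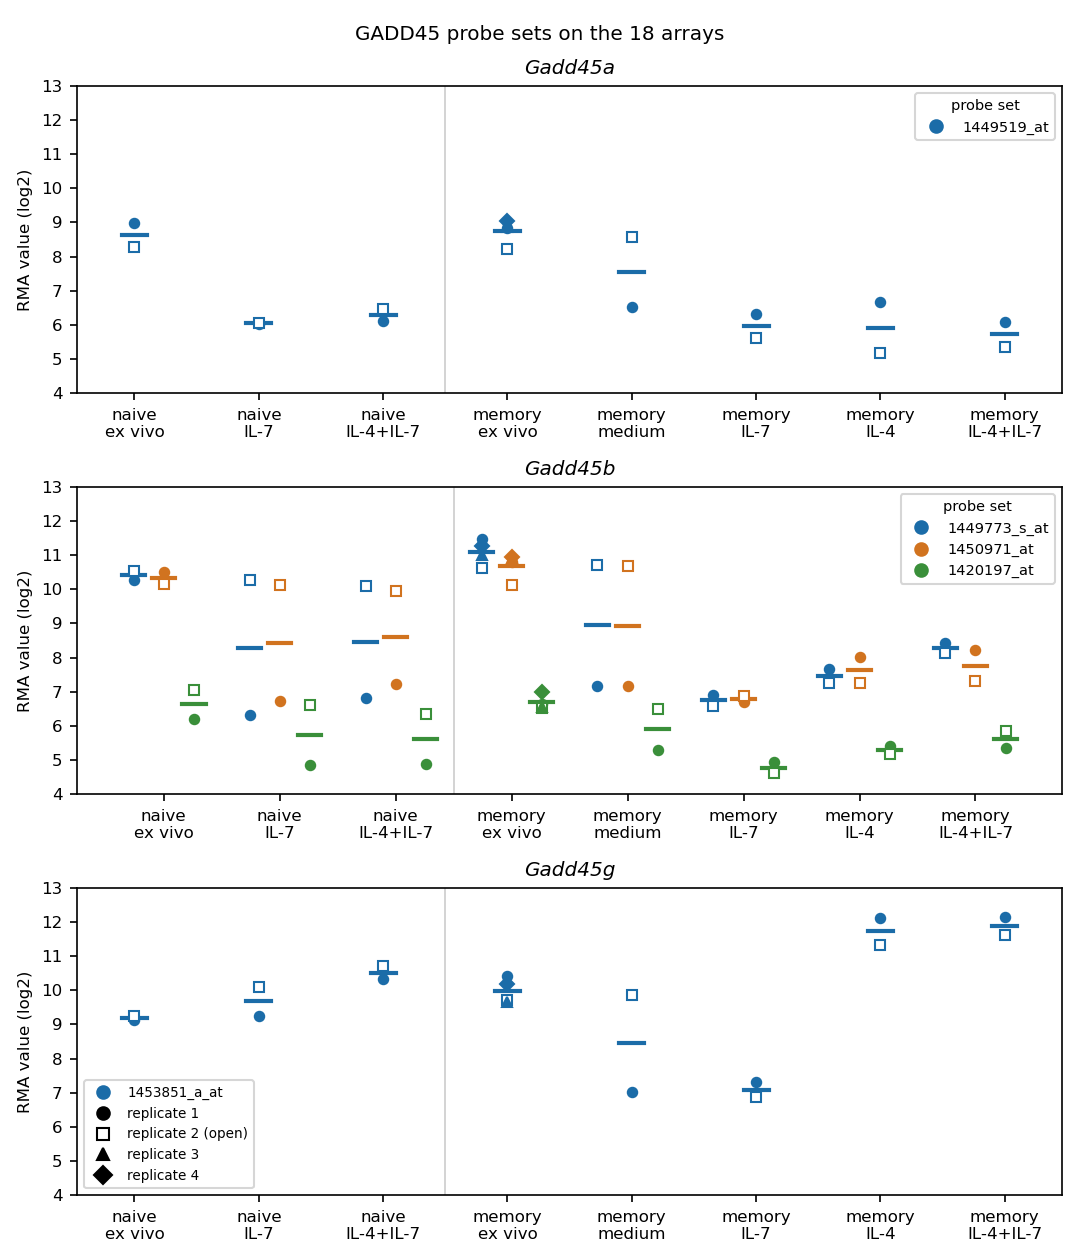
RMA values (log2, vertical axis) of the 5 GADD45 probe sets on the 18 arrays, by group (horizontal axis); each point is 1 array, open squares are arrays numbered 2, and short lines are group means. Gadd45a is lower in all cultures except medium array 2, Gadd45b is split within both naive cultures, and the 4 memory arrays with IL-4 hold the highest Gadd45g values (11.33 to 12.15).

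Culture of memory cells with IL-7 was compared with memory cells ex vivo, to see what 20 hours outside the animal did to these genes. All 5 probe sets fell. Of all 29816 probe sets tested, 18.9% changed in either direction in this comparison (limma, Benjamini-Hochberg adjusted p under 0.05). On the bright probe set Gadd45b fell by 4.35 in log2 units (SE 1.05, adjusted p = 0.0139), which is 20.4-fold lower. On the middle one it fell by 3.91 (adjusted p = 0.0153) and on the dim one it fell by 1.92 (adjusted p = 0.0161). Gadd45g fell by 2.91 (SE 0.56, 7.49-fold lower, adjusted p = 0.00589), and Gadd45a fell by 2.77 (SE 0.50, 6.84-fold lower, adjusted p = 0.00494). For each probe set, both IL-7 arrays lay below all 4 ex vivo arrays. With 1 of the IL-7 arrays left out, adjusted p rose to between 0.0556 and 0.129 for the 3 Gadd45b probe sets and Gadd45g, whichever was left out, and to 0.0689 for Gadd45a without array 2, at changes of the same sign. The signal difference between the 3′ and 5′ probe sets for Gapdh, a measure of RNA integrity and labelling, was 2.07 to 2.69 ex vivo, 2.35 on medium array 2 and 2.67 to 3.36 on the other cultured arrays (log2). For the beta-actin probe sets it was 1.95 to 2.07 ex vivo, 1.87 on medium array 2 and 1.63 to 2.25 on other cultured arrays. The latter range thus held the ex vivo values. The part of RNA integrity and labelling in these changes was not tested.

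In naive cells the same comparison, IL-7 culture against ex vivo, changed 1 of the 5 probe sets, against 9.41% of all probe sets. Gadd45a fell by 2.59 (SE 0.58, 6.01-fold lower, adjusted p = 0.0176), with both cultured arrays below both ex vivo arrays. This call rests on few arrays: without any 1 of the 4, adjusted p lay between 0.0623 and 0.112. Gadd45b differed by -2.13 on the bright probe set (SE 1.21, adjusted p = 0.308), the mean of 1 array at the ex vivo level and 1 far below it. With naive IL-7 array 2 left out, the difference was -4.10 and still did not pass (adjusted p = 0.124). Of the settings run, it passed only when medium array 2 and both naive cultured arrays numbered 2 were left out, a setting chosen on the Gadd45b values themselves, which gives its p no weight. Gadd45g differed by 0.49 (95% interval -0.89 to 1.87, adjusted p = 0.719).

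The culture responses of memory and naive cells were then compared with each other, both in IL-7. No GADD45 probe set passed in this difference of differences (0 of 5), against 0.0235% of all probe sets. For Gadd45g the change in memory cells minus that in naive cells was -3.39 on the log2 scale (95% interval -5.22 to -1.57, unadjusted p = 0.00137, adjusted p = 0.18). Without medium array 2, which enters only through the pooled spread, the same difference had an adjusted p of 0.0138. For Gadd45a the difference was -0.19 (95% interval -1.83 to 1.46), and for Gadd45b on the bright probe set it was -2.22 (-5.67 to 1.22).

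Medium without added cytokine gave no call among the GADD45 probe sets against memory cells ex vivo (0 of 5; 0% of all probe sets, with 3007 at an unadjusted p under 0.05 in limma). Gadd45g differed by -1.55 (unadjusted p = 0.0148), Gadd45a by -1.20 (unadjusted p = 0.0318) and Gadd45b on the bright probe set by -2.15 (unadjusted p = 0.0604). Each is a mean of 1 array that was low and 1 at the ex vivo level. Without medium array 2, 4 of the 5 probe sets fell, against 12.9% of all probe sets: Gadd45a at -2.22 (adjusted p = 0.00913), Gadd45b at -3.93 on the bright probe set (adjusted p = 0.0384) and -3.52 on the middle one (adjusted p = 0.037), and Gadd45g at -2.98 (adjusted p = 0.000391). The dim Gadd45b probe set differed by -1.39 (adjusted p = 0.14). These values rest on a single medium array whose spread is taken from the other groups.

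IL-4 raised Gadd45g in memory cells. When IL-7 was present, it was 27.9-fold higher with IL-4 than without (4.80 on the log2 scale, SE 0.64, adjusted p = 0.00167), and it was the 1 GADD45 probe set of 5 to pass, against 1.60% of all probe sets. Both arrays with IL-4 exceeded both without by more than 4. The change lay between 4.55 and 5.06 in all 13 alternative settings and passed in each. Without IL-7, Gadd45g was 9.76-fold higher with IL-4 than in medium (3.29, SE 0.64, adjusted p = 0.0234), again 1 of 5 against 1.16% of all probe sets. That value is 4.71 without medium array 2 (adjusted p = 0.000106) and 1.86 without medium array 1, and it lost the call without IL-4 array 1 (adjusted p = 0.216) or IL-4 array 2 (adjusted p = 0.0896).

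Gadd45a and Gadd45b did not share the rise of Gadd45g past the test in memory cells. With IL-7, IL-4 gave a difference of -0.25 for Gadd45a (SE 0.58, adjusted p = 0.873) and of 1.55 for Gadd45b on the bright probe set (95% interval -1.06 to 4.15, adjusted p = 0.592). Both Gadd45b arrays with IL-4 were higher than both without on this probe set, while the spread used in the test also takes in the split naive and medium arrays. Without IL-7, Gadd45a differed by -1.62 (unadjusted p = 0.0144, adjusted p = 0.24), which became -0.60 without medium array 2 and -2.65 without medium array 1. Gadd45b on the bright probe set differed by -1.48 there (adjusted p = 0.662), and its sign changed, to 0.29, without medium array 2.

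In naive cells with IL-7, IL-4 changed 0 of the 5 probe sets, against 0.681% of all probe sets. Gadd45g read 10.32 and 10.72 with IL-4 against 9.25 and 10.10 without, so the groups did not overlap, but the difference of 0.84 (95% interval -0.54 to 2.22, adjusted p = 0.855) did not pass the test. Averaged over the 3 IL-4 contrasts, Gadd45g rose by 2.98 (SE 0.37, 7.88-fold, adjusted p = 0.000237), 1 of 5 against 5.37% of all probe sets. Gadd45a averaged -0.54 (adjusted p = 0.439) and Gadd45b 0.08 on the bright probe set (adjusted p = 0.974). Without medium array 2 these averages were 3.45 for Gadd45g, -0.20 for Gadd45a and 0.67 for Gadd45b on the bright probe set.

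The IL-4 response of Gadd45g was larger in memory than in naive cells by 3.96 on the log2 scale (SE 0.91, 95% interval 2.01 to 5.91, unadjusted p = 0.000683). The test of this difference over all probe sets did not pass (adjusted p = 0.304; 0 of 5, against 0.0268% of all probe sets), and it passed without medium array 2 (adjusted p = 0.0132). The memory arrays with IL-7 alone were 2.59 lower in the mean than the naive ones, and those with both cytokines 1.37 higher. Most of the difference thus lay in the low level of memory cells cultured with IL-7 alone. Ex vivo, Gadd45g was 0.80 higher in memory than in naive cells, which did not pass the test. For Gadd45a the difference of the IL-4 responses was -0.49 (-2.25 to 1.27) and for Gadd45b on the bright probe set 1.38 (-2.31 to 5.06).

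Whether IL-7 altered the IL-4 response in memory cells was tested as an interaction. None of the 5 probe sets passed, and 0% of all probe sets did in limma, with 1364 at an unadjusted p under 0.05. For Gadd45g the interaction was 1.52 (95% interval -0.44 to 3.47), 0.089 without medium array 2 and 2.94 without medium array 1 (adjusted p = 0.00775). The value for Gadd45g thus depended on which medium array was kept. Gadd45b on the bright probe set gave 3.03 (-0.65 to 6.72) and Gadd45a 1.37 (-0.39 to 3.13). Without medium array 2 they gave 1.25 and 0.35.

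IL-7 itself gave no call in memory cells. Without IL-4, 0 of 5 probe sets passed and 0% of all probe sets did in limma (1895 at an unadjusted p under 0.05). Gadd45a differed by -1.57 (unadjusted p = 0.017), Gadd45g by -1.36 (unadjusted p = 0.0535) and Gadd45b on the bright probe set by -2.20 (unadjusted p = 0.0913). Without medium array 2 these differences became -0.55, 0.071 and -0.43, and without medium array 1 Gadd45a was -2.60 (adjusted p = 0.00617) and Gadd45g -2.78 (adjusted p = 0.00112). With IL-4 present, 0 of 5 passed, 0% of all probe sets did (548 at an unadjusted p under 0.05), and Gadd45g differed by 0.16 (95% interval -1.22 to 1.54).

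**Figure D2:**
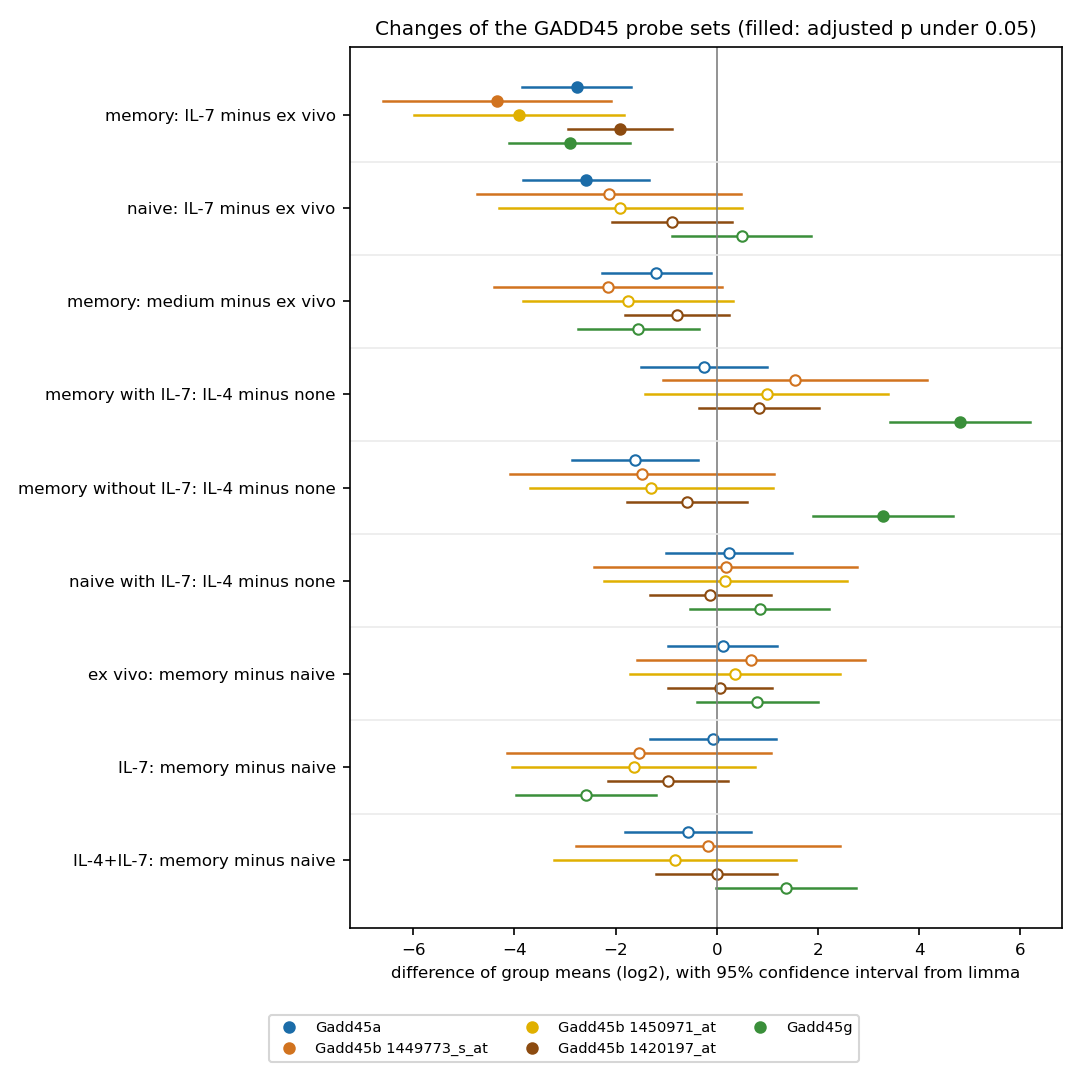
Differences of group means (log2, horizontal axis) of the 5 GADD45 probe sets in 9 comparisons (vertical axis), with 95% confidence intervals from limma; filled points have an adjusted p under 0.05. All 5 points are filled for memory cells in IL-7 against ex vivo, only Gadd45a is filled for naive cells, and only Gadd45g is filled for IL-4 in memory cells (4.80 when IL-7 was present and 3.29 when not).

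Memory and naive cells were compared at 3 points. Ex vivo, 0 of 5 probe sets passed, against 1.24% of all probe sets. Gadd45g was higher by 0.80 in memory cells (95% interval -0.39 to 2.00, adjusted p = 0.496) with all 4 memory arrays above both naive arrays, Gadd45b by 0.68 on the bright probe set (-1.58 to 2.94) and Gadd45a by 0.12 (-0.96 to 1.19). In IL-7, 0 of 5 passed against 2.14% of all probe sets, and Gadd45g came nearest, at -2.59 in memory against naive cells (SE 0.64, 6.02-fold lower, adjusted p = 0.0559). Without medium array 2 the same difference had an adjusted p of 0.00102. In both cytokines the order was the other way, with Gadd45g higher by 1.37 in memory cells (95% interval -0.01 to 2.75, adjusted p = 0.251, and 0.0415 without medium array 2), and 0 of 5 passed against 2.50% of all probe sets. Gadd45b on the bright probe set differed by -0.17 there (-2.77 to 2.44), a mean that takes in the split naive arrays, and by 1.47 with the 3 arrays numbered 2 left out. Alas2 was higher in memory cells by 3.19, 4.00 and 3.48 at these points (adjusted p = 0.196, 0.149 and 0.157), and Zbtb7b by 0.48, 0.90 and 0.85 (adjusted p = 0.19, 0.024 and 0.035). The summed linear signal of the 2 red cell precursor markers on the array was 28.4 to 80.5 in naive and 126 to 2897 in memory groups. The difference in that sum came from Alas2, since the other marker, Hba-a1, lay between 3.05 and 3.71 on the log2 scale, below the filter on every array. The summed signal of the 3 CD4 T cell markers was 106 to 137 and 153 to 202. Most of that sum came from Zbtb7b, which lay between 6.12 and 7.28 on the log2 scale. Cd4 lay between 4.55 and 5.30, and Foxp3 below the filter on every array. The summed signal of the 3 NK cell markers was 51.0 to 56.7 and 57.4 to 148. The sums of the B cell, myeloid and platelet markers overlapped. Their part in these differences was not tested.

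The genes most like each member were ranked by Pearson r over the 18 arrays against 13768 other genes, each by its brightest probe set. Arrays of a group share their treatment, so r is a description, and genes picked by r follow the member's pattern by that choice. Gadd45a was closest to Wdr45b (r = 0.973), Nkrf (0.970), Oser1 (0.968), Dnajb9 (0.967) and Pnrc1 (0.966). Dnajb9, a chaperone of the endoplasmic reticulum, ran from 11.67 to 12.02 on the 6 ex vivo arrays and medium array 2 and from 9.05 to 10.19 on the others.

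Gadd45b was closest to Cdkn1a (r = 0.963), the gene of the cell cycle inhibitor p21, then Cebpb (0.960), a transcription factor of the leucine zipper class, Nr4a2 (0.944), an orphan nuclear receptor induced early after stimulation, the chemokine gene Cxcl10 (0.941) and D030056L22Rik (0.937). Cdkn1a showed the Gadd45b split in full: 5.24 and 10.04 in naive cells with IL-7, 5.29 and 9.84 with both cytokines, and 5.97 and 11.55 in medium. On the 6 memory arrays with cytokine, Cdkn1a lay between 5.36 and 6.04. Nr4a2 read 3.57 and 7.62 in naive cells with IL-7 and 3.38 and 8.50 with both cytokines. It ran from 11.43 to 11.92 on the ex vivo arrays and from 3.42 to 4.12 on the 6 memory arrays with cytokine, so both naive arrays numbered 2 lay in between.

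Gadd45g was closest to Htt (r = 0.903), Treml2 (0.890), Agpat3 (0.886), Il4ra (0.884), the gene of the IL-4 receptor alpha chain, and Ppa1 (0.884). Il4ra read 9.73 and 9.45 in memory cells with IL-7 and 12.74 and 12.53 with both cytokines. Treml2 read 8.22 and 8.13, then 10.95 and 10.50, in the same groups. In naive cells Il4ra read 13.25 and 11.98 with both cytokines and 10.67 and 10.52 with IL-7, where Gadd45g read 10.32 and 10.72 and then 9.25 and 10.10.

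**Figure D3:**
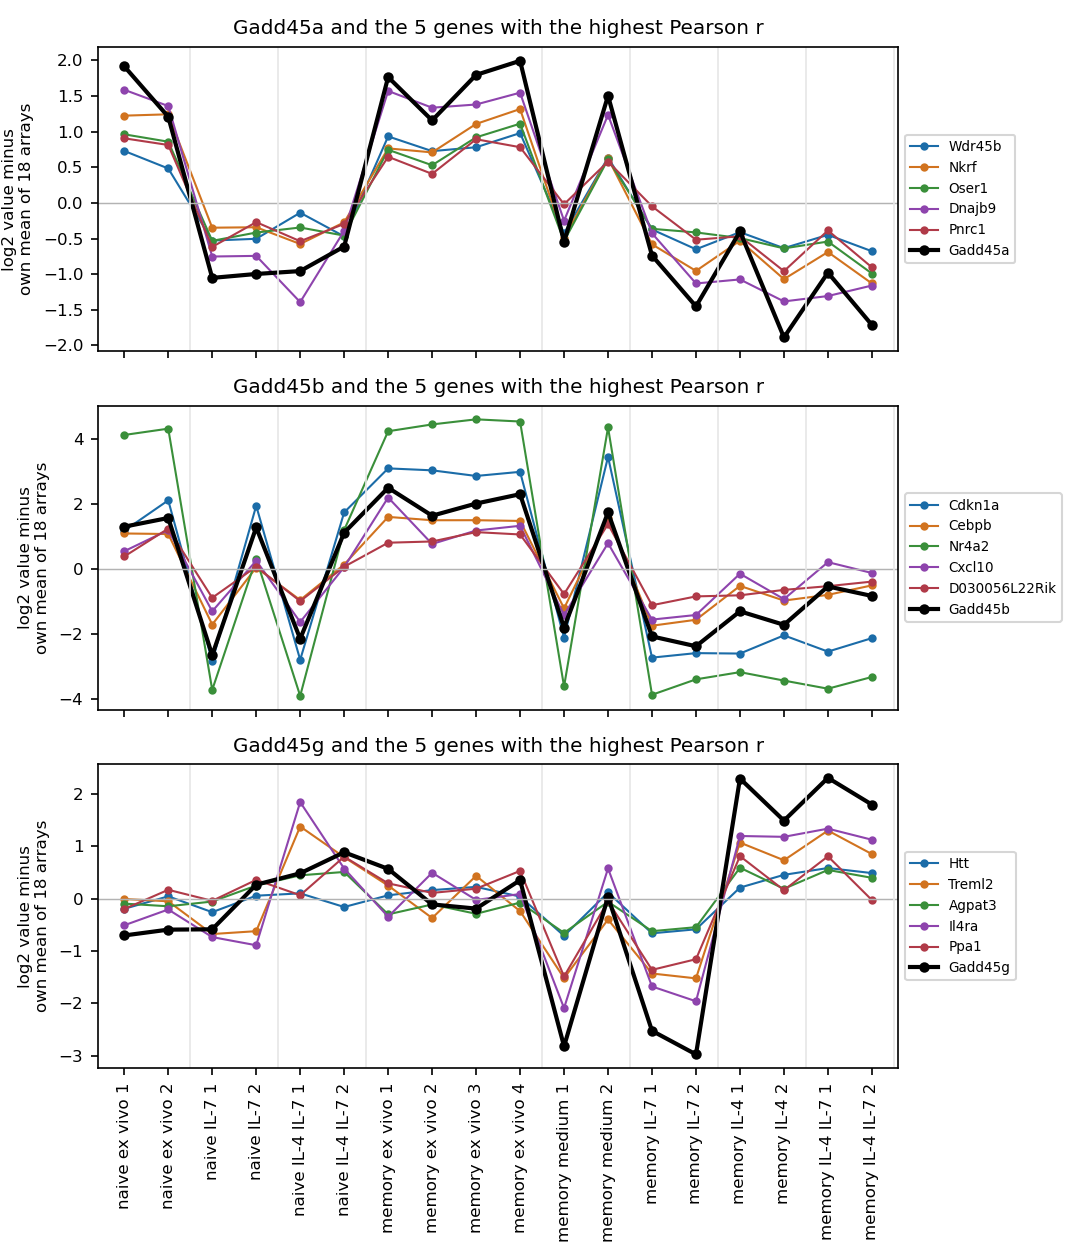
Log2 values minus each gene's own mean over the 18 arrays (vertical axis) for Gadd45a, Gadd45b and Gadd45g (black) and the 5 genes most like each (colours), array by array (horizontal axis); lines join arrays only to guide the eye. Medium array 2 lies near the ex vivo arrays in all 3 panels, and Cdkn1a and Nr4a2 share the Gadd45b split between naive arrays 1 and 2.

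Genes around the family were read from 9 lists, over 13769 genes at 1 probe set per gene, with calls and adjusted p-values from the same limma fit. In memory cells with IL-7 against ex vivo, where 1448 of the 13769 genes rose and 1165 fell (18.9% of all probe sets changed), 1 of 13 genes of the p38 and JNK kinase route rose and 3 fell: Mapk9, a JNK gene, rose by 0.62 (adjusted p = 0.0159), and Mapk8, another JNK gene, fell by 0.80 (adjusted p = 0.0111). Mapkapk2, the gene of a p38 substrate, fell by 0.98, and Map2k3, that of a kinase upstream of p38, fell by 0.70. Of 6 cell cycle partners 3 fell, namely Cdkn1a, the sliding clamp gene Pcna at -1.31 (adjusted p = 0.00879) and the mitotic kinase gene Aurka at -1.98 (adjusted p = 0.00619), and 0 rose. Of 8 DNA demethylation and repair partners 0 passed, the nearest being Ing1 at 0.46 (adjusted p = 0.0547). IL-4 averaged over its 3 contrasts changed 0 of 13, 0 of 6 and 0 of 8 genes of these lists, against 5.37% of all probe sets.

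Of the stress pathways known to induce GADD45 genes, the immediate early list was lower after culture almost throughout. In the same comparison of memory cells, against 18.9% of all probe sets changed, 18 of 20 immediate early genes fell and 0 rose, with a median of -3.45 against -0.05 over all genes; Junb was at -4.60 (adjusted p = 0.00302), Klf4 at -4.54, Fos at -3.29 and Ier2 at -2.37. Of 17 ATF4 and CHOP stress genes 9 fell and 1 rose (median -1.06), among them Ppp1r15a, whose product GADD34 resembles the family in name but not in structure, at -2.76 (adjusted p = 0.003), Hspa5 at -2.23, Atf4 at -1.60 and Cebpb at -3.18. Of 11 NF-kB target genes 5 fell and 1 rose (median -1.03), with Tnfaip3 at -2.80 (adjusted p = 0.00302) and Traf1 at 0.93. The p53 target genes went both ways, 6 of 22 down and 5 up (median 0.01): Plk2 was at -2.67 and Tnfrsf10b at -2.01, and Trp53inp1 at 1.32 and Polk at 1.29. Of 13 FOXO target genes 3 rose, Pik3ip1 by 1.99, Il7r by 1.01 and Sesn1 by 0.76, and 2 fell, Irs2 among them at -2.81.

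The mean of the 20 immediate early genes followed Gadd45b in part. It lay between 11.21 and 11.80 on the 6 ex vivo arrays and at 11.40 on medium array 2, and between 7.85 and 8.50 on the cultured arrays other than the naive arrays numbered 2, where it was 9.51 and 9.66. These genes answer stimuli within a short time, and their part in the ex vivo level of the GADD45 genes was not tested. In naive cells with IL-7 against ex vivo, where 789 of 13769 genes rose and 689 fell (9.41% of all probe sets changed), 6 of the 20 fell (median -1.73, against 0.07 over all genes), Klf4 at -5.96 (adjusted p = 0.00303) and Fosb at -5.51, and 0 rose. There, 2 of 17 ATF4 and CHOP genes fell and 1 rose (Trib3, at 2.35), 1 of 11 NF-kB genes fell (Tnfaip3, at -3.09) and 2 rose, and 1 of 22 p53 genes fell (Plk2, at -1.80) and 2 rose (Aen at 1.33, Rrm2b at 1.13). With medium array 2 left out, which enters only through the pooled spread, 16.4% of all probe sets changed in this comparison of naive cells. There, 10 of 20 immediate early and 4 of 17 ATF4 and CHOP genes fell, and 3 of 22 p53 genes fell and 4 rose. No count is given with both naive cultured arrays numbered 2 left out as well. That setting was chosen on Gadd45b and leaves 1 array in each naive culture.

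IL-4, averaged over the 3 contrasts, raised 491 and lowered 306 of the 13769 genes (5.37% of all probe sets changed), so counts of 0 or 1 in the lists lie near the share over all features. Of the ATF4 and CHOP genes 0 of 17 passed. Among the p53 genes 0 rose and 1 of 22 fell (Sesn1, also on the FOXO list, at -0.60, adjusted p = 0.0301). Of the NF-kB genes 1 of 11 rose (Birc3, at 0.74, adjusted p = 0.0019). The mean of the 11 NF-kB genes was 9.11 and 9.97 in medium and 9.64 and 9.59 with IL-4 alone. That of the 13 FOXO genes was 10.44 and 10.66 in memory cells with IL-7 and 10.12 and 10.06 with both cytokines. Without IL-7 it was 10.61 and 10.52 in medium and 10.09 and 10.23 with IL-4. Naive arrays had FOXO means of 10.25 and 10.12 with IL-7 and 10.62 and 10.04 with both cytokines. Of the immediate early genes 6 of 20 fell, Klf6 at -0.69, Ier5 at -0.77, Dusp1 at -1.09 and Fos at -1.59, and 0 rose. This average takes in medium array 2, where the mean of the 20 genes was 11.40, against 8.48 on medium array 1. Memory arrays with IL-4 alone had means of 8.09 and 7.85. The means were 8.37 and 8.12 in memory cells with IL-7 and 8.07 and 7.91 with both cytokines. In naive cells they were 8.50 and 9.51, then 8.13 and 9.66. On the route from IL-12 and IL-18 to interferon gamma, in which GADD45B and GADD45G act, 3 of 8 genes rose and 1 fell: Eomes, a transcription factor of memory cells, rose by 2.14 (adjusted p = 0.00441), Il12rb1, an IL-12 receptor chain, by 0.97 (adjusted p = 0.00523) and Stat4 by 0.55 (adjusted p = 0.029), and Il18r1, an IL-18 receptor chain, fell by 1.68 (adjusted p = 6.09e-05). Against naive cells, memory cells in IL-7 were higher in 4 of these 8 genes and lower in 0, where 163 of all 13769 genes were higher and 170 lower. Ifng was higher by 5.66 (adjusted p = 0.000204), Il18rap by 2.42, Il18r1 by 1.45 and Tbx21 by 3.27. This was shared by all memory groups: the mean of the 8 genes was 8.33 to 9.16 on memory arrays and 6.10 to 7.09 on naive arrays. It was 8.42 and 8.33 in memory cells with IL-7, where Gadd45g was lowest, and 8.86 and 8.80 with both cytokines, where Gadd45g was highest. The 2 did not go together elsewhere. On the memory arrays ex vivo the mean was 9.09, 8.74, 8.54 and 9.16, with Gadd45g between 9.65 and 10.41. On the naive arrays, with the lower means, Gadd45g lay between 9.13 and 10.72.

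**Figure D4:**
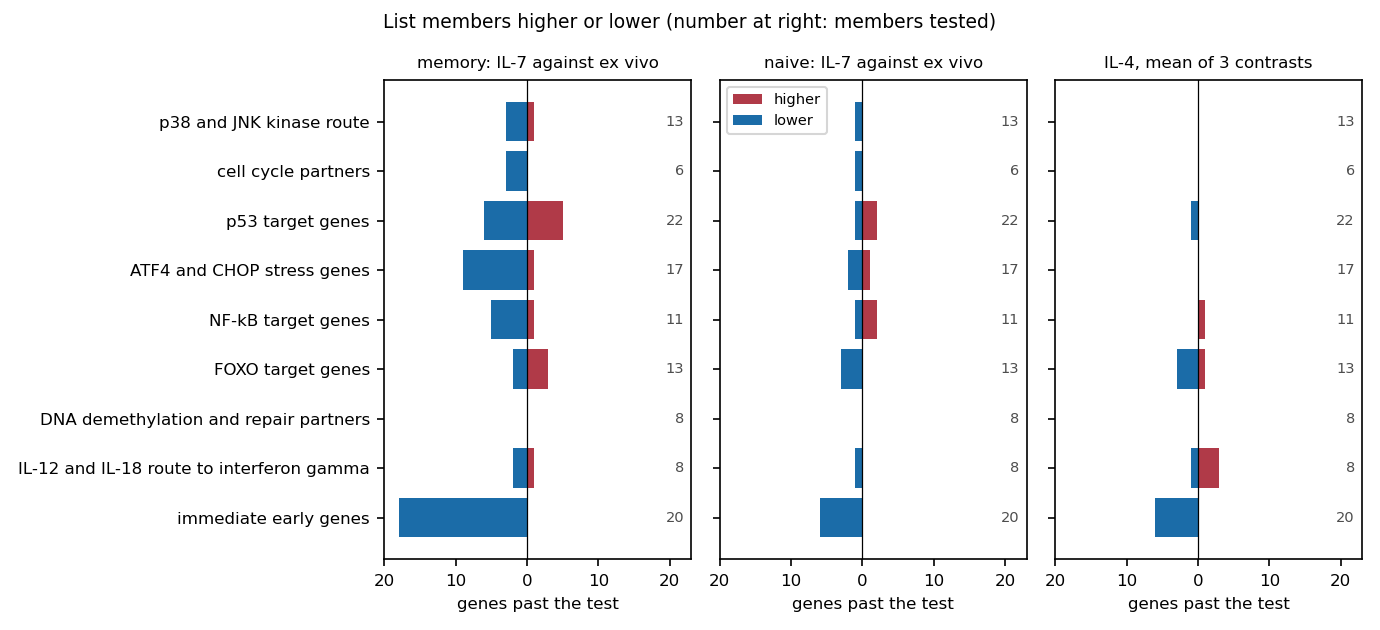
Number of genes of each list (vertical axis) that were higher (right of 0) or lower (left of 0) at an adjusted p under 0.05 (limma) in 3 comparisons (panels); the number at the right of each row is how many members were tested. Of 20 immediate early genes, 18 were lower in memory cells and 6 in naive cells after IL-7 culture, each against ex vivo, and 6 were lower with IL-4.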

How the data were processed

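The values are log2 RMA signals, 1 per probe set and array, deposited by the authors, with RMA and limma named without a version per the submitters' processing notes. RMA normalises all arrays to 1 distribution, so a change is relative to the whole array. From 45101 probe sets, 64 array controls were left out. A probe set was tested when it exceeded the 40th percentile of all values (4.06) on at least 2 arrays, which kept 29816 and left out 15221. Gene names came from the array annotation: 34945 probe sets have 1 symbol, 932 several and 9160 none.

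A linear model over 18 arrays with 8 group means and no replicate block was fitted with limma 3.58.1 in R 4.3.3 (moderated variances, two-sided, Benjamini-Hochberg over all probe sets tested, threshold 0.05) and tested on simulated data. There were 15 contrasts, several of which share arrays. No label says that cultured arrays came from separate cultures or animals, so p-values speak only of the spread seen among these arrays, which may be technical, and the number of arrays limits the precision.

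The GADD45 genes and the gene lists were chosen with earlier results of these data known. Named from the lists were up to 4 members with the smallest p in the comparison described, and for each GADD45 gene the 5 genes with the highest r. Array weights, the filter, 1 probe set per gene, median centring, a replicate block and left-out arrays were tried as alternatives.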

Additional observations from a re-analysis of the deposited data

How the results depend on the processing

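Gadd45g with IL-4 on memory cells with IL-7, and averaged over the 3 IL-4 contrasts, kept its direction and call in all 13 and 20 alternatives. Median centring and no filter changed no call of a GADD45 probe set. No label ties a replicate number to a shared source. Same-numbered arrays deviated together among memory cells with IL-7, IL-4 and both cytokines (r = 0.273 to 0.468) and between the naive cultures (0.454), but hardly between medium and these memory cultures (-0.046 to 0.027). Between naive and memory cultures r ran from -0.057 to 0.344 (both cytokines), and in pairs with ex vivo arrays from -0.231 to 0.286. The picture was thus mixed, and the numbers were not used as pairs. With a replicate block, Gadd45g with IL-4 without IL-7 was 3.29 (adjusted p = 0.0605), the middle Gadd45b probe set in memory IL-7 culture -3.68 (adjusted p = 0.0598), and the counts of probe sets past the threshold moved to 2 for the difference of IL-4 responses and 3234 for memory IL-7 culture against ex vivo; the block changed no other GADD45 call. For Gadd45g in memory against naive cells in IL-7 (-2.59), adjusted p was 0.0485 with a filter at the 60th percentile, 0.0429 with 1 probe set per gene and 0.000836 with array weights, which also gave -3.42 (adjusted p = 0.0146) for the difference of culture responses. With 1 probe set per gene the counts were 249 genes for IL-4 on memory cells with IL-7, 868 for IL-4 averaged, 372 for memory against naive in IL-7, 2745 for memory and 1763 for naive IL-7 culture; fewer features are tested there. Array weights gave, in the order of the comparisons, 1655 and 113 for IL-4 on memory cells with and without IL-7, 753, 2720 and 234 for memory against naive ex vivo, in IL-7 and in both cytokines, 10391 and 5810 for memory and naive IL-7 culture and 492 for their difference, for which the stricter filter gave 4. Without both naive cultured arrays numbered 2, chosen after seeing the data, counts were 216 and 1480 for memory against naive in IL-7 and in both cytokines and 208 for naive IL-7 culture, and Gadd45a there was -2.61 (adjusted p = 0.112). Without these and medium array 2, counts were 1295 and 455 for IL-4 in memory and naive cells with IL-7, 133 for the difference, 862 and 2722 for memory against naive ex vivo and in both cytokines, 4401 for medium and 41 for the difference of culture responses. That setting was chosen on the Gadd45b values, so its p-values for Gadd45b support nothing. In it the bright Gadd45b probe set was 1.55 and 0.78 (adjusted p = 0.00877 and 0.0315) for IL-4 on memory cells with IL-7 and averaged, -4.10 in naive IL-7 culture and -3.93 in medium, and it reversed to 1.47 (from -0.17) for memory against naive cells in both cytokines. Gadd45g was 3.73 (adjusted p = 0.0265) for the difference of IL-4 responses, -2.16 and 1.57 for memory against naive in IL-7 and in both cytokines, -2.97 for the difference of culture responses and -2.98 in medium, and Gadd45a was -2.22 in medium. The cause of these shifts was not tested.

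With 1 array left out at a time, the counts ran from 115 to 905 for IL-4 on memory cells with IL-7, 91 to 4376 without IL-7, 58 to 1000 in naive cells, 957 to 3673 averaged, 1 to 590 for the difference and 0 to 2065 for the interaction; 0 to 3974 for IL-7; 149 to 732, 148 to 1063 and 106 to 1821 for memory against naive ex vivo, in IL-7 and in both cytokines; and 0 to 3848 for medium, 276 to 7430 and 144 to 4892 for memory and naive IL-7 culture and 2 to 115 for their difference. Gadd45a ran from -2.65 to -0.60 for IL-4 without IL-7, -0.89 to -0.20 averaged, -2.60 to -0.55 for IL-7, -2.22 to -0.17 in medium, -3.13 to -2.42 and -2.94 to -2.23 in memory and naive IL-7 culture. The bright Gadd45b probe set ran from -3.93 to -0.37 in medium and -4.51 to -4.20 in memory IL-7 culture. Gadd45g ran from 1.86 to 4.71 for IL-4 without IL-7, 3.53 to 4.38 for the difference, 0.089 to 2.94 for the interaction, -2.78 to 0.071 for IL-7, -3.02 to -2.16 and 1.11 to 1.62 for memory against naive in IL-7 and in both cytokines, -2.98 to -0.12 in medium, -3.13 to -2.68 in memory IL-7 culture and -3.82 to -2.97 for the difference of culture responses. Where a group was left with 1 array, it was assumed to vary like the other groups. The filter value is a percentile, not a measured background.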

Other observations

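The split of Gadd45b between the naive cultured arrays numbered 1 and 2 was shared by a small set of genes, picked here after their values had been seen. Of 13769 genes, 40 were higher by more than 2 on the log2 scale on array 2 than on array 1 in both naive cultures, and 0 were lower by as much in both. Gadd45b ranked 10th by the smaller of its differences, 3.94 with IL-7 and 3.27 with both cytokines. Lad1 came first (6.67 and 6.90), then the transcription factor gene Irf4 (5.73 and 5.43), Tnnt2 (5.42 and 5.68), Cdkn1a (4.80 and 4.55) and the chemokine gene Ccl4 (4.47 and 5.38). Nr4a2 (4.05 and 5.12) and the activation marker gene Cd83 (3.96 and 5.29) were also among them. Gadd45a differed by 0.05 and 0.34 and Gadd45g by 0.85 and 0.40 in the same pairs.

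The split of the medium arrays was not the same. Of the 40 genes, 12 were also higher by more than 2 on medium array 2 than on medium array 1, Cdkn1a by 5.58, Nr4a2 by 7.99, Gadd45b by 3.55 and Irf4 by 3.35 among them, whereas Lad1 differed by 0.18, Tnnt2 by -0.14 and Cd83 by 0.53. Between the medium arrays Gadd45a and Gadd45g differed by 2.05 and 2.86.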
